A study of Mus musculus with 6 samples.

Results

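The matrix metalloproteinases (MMPs) and the tissue inhibitors of metalloproteinases (TIMPs) were followed in RNA-seq of mG7080 tumors grown in the brains of Esm1 WT and Esm1 KO hosts, with 3 libraries per group. The line mG7080 is a gliomasphere culture from a mouse model of glioblastoma driven by tumor suppressor mutations, so tumor cells of both groups carried the same mutations, and the knockout was in the host. Cells (500000 per animal) were injected intracranially into WT hosts or Esm1 KO hosts, both labelled as strain C57BL/6, with host ages of 6 to 8 weeks in one statement of the methods and 8 to 12 weeks in another and no treatment in the labels. Each library was bulk RNA of 1 resected tumor and therefore held tumor cells together with cells of the host brain, vessels and blood, and every tumor came from the same culture. In such bulk RNA, fewer cells of a type and less RNA per cell cannot be told apart.

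The members were 10 of the 16729 genes of the count table, taken by symbol, namely the 6 metalloproteinases Mmp2, Mmp9, Mmp12, Mmp14, Mmp15 and Mmp16 and the 4 inhibitors Timp1, Timp2, Timp3 and Timp4. They were chosen with the levels in KO and WT hosts already known, so their differences between hosts are given as a description. All 10 passed the filter on low counts.

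MMPs are zinc-dependent endopeptidases that cut collagens, laminins, proteoglycans and cell surface proteins, and most are made as inactive proenzymes whose prodomain has to be removed. Some are secreted, such as the gelatinases Mmp2 and Mmp9 and the macrophage elastase Mmp12, while the membrane-type MMPs Mmp14, Mmp15 and Mmp16 sit in the plasma membrane. TIMPs bind the active site of the enzymes, and TIMP2 also forms a bridge on the cell surface through which MMP14 activates proMMP2. In glioblastoma the family is known for invasion along vessels and white matter and for the remodeling of vascular basement membrane.

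Total counts per library ranged from 17632070 to 22241832, so that 1 read was worth 0.0445 to 0.0570 CPM (counts scaled to a common library size with TMM factors), and a count of 0 would allow up to 3 reads, 0.134 to 0.171 CPM. Esm1 had 1.19, 1.09 and 4.05 CPM in the WT libraries (in the order WT 1, WT 2, WT 3) and was at 0.0570 CPM (1 read) in KO 1, at 0.208 CPM (4 reads) in KO 3, and at 1.07 CPM (24 reads) in the library labelled KO 2. The library labelled KO 2 was therefore near the level of WT 1 and WT 2. The knockout was in the host, so Esm1 reads from tumor cells would not go against the label. For human gliomasphere lines, the paper reported almost no Endocan in the culture medium. In a published single-cell dataset of human glioblastoma, it found ESM1 RNA in endothelial cells and not in other cell types. The source of the Esm1 reads in KO 2 was not tested. The fitted differences below are given over all 6 libraries and without KO 2. KO 1 and KO 3 also stood apart in cell markers. The summed level of the 8 proliferation markers was 1001, 1793 and 1738 CPM in WT, and 90.0, 1106 and 11.7 CPM in KO. The summed level of the 10 neuron markers was 5359, 1722 and 3308 CPM in WT, and 12443, 4611 and 14881 CPM in KO. No marker of either list was at 0 in any library, and the part of these shifts in the differences of the members was not tested.

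Promoter windows from 250 bases before to 50 bases after the annotated start were matched by symbol for 7 of the 10 members (RefSeq, GRCm38.p6; all but Mmp2, Mmp9 and Mmp16), in 8 windows. The windows of 4 genes are shown because these carry the patterns described next, Mmp14, Mmp15 and Timp1 with low levels in KO 1 and KO 3, and Mmp12 with reads mainly in 1 library. Each runs 5′ to 3′ on the plus strand, and capitals mark matches on either strand to the AP-1 motif of Fos and Jun factors (TGANTCA), to the element bound by the general factor TBP (TATAAA) and to the GC box of Sp1-like factors (GGGCGG).
Mmp12, second annotated start, chr9:7347124-7347423: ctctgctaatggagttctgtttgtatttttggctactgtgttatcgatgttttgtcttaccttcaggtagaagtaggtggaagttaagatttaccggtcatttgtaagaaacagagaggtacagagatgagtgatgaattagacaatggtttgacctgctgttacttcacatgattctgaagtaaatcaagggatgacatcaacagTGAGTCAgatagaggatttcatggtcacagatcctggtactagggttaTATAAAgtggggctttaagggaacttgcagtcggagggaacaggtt
Mmp14, chr14:54431348-54431647: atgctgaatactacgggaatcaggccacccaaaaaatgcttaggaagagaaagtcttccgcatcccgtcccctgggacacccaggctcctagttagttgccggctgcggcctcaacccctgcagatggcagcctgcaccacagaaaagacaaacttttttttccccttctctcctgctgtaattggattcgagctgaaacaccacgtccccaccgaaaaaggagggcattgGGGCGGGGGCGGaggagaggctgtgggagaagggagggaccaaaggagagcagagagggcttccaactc
Mmp15, chr8:95352046-95352345: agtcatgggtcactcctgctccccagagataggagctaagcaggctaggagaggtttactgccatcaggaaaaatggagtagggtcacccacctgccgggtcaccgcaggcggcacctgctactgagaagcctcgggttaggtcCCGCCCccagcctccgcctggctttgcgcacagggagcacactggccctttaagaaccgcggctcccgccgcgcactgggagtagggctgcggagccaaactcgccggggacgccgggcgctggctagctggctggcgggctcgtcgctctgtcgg
Timp1, chrX:20869916-20870215: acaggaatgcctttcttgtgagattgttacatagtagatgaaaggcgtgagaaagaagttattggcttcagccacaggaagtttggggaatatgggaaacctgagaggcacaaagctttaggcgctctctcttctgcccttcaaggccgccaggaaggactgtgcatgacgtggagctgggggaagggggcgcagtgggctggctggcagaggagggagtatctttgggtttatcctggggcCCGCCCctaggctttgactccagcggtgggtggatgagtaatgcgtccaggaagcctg

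The Mmp12 window held 1 AP-1 match that began 44 bases before the start and 1 TATAAA match that began 4 bases after it, and the window of the first annotated Mmp12 start held none of the motifs. Of 32851 windows of the same length, 7.81% held the AP-1 motif, 13.6% TATAAA and 35.7% the GC box. GC boxes were found in the windows of Mmp14 (2, which stand 19 and 13 bases before the start and touch without overlap), Mmp15 (1, at 106 bases before it) and Timp1 (1, at 8 bases before it), and also in those of Timp2 (1) and Timp3 (2), which had no such difference between hosts. Timp4 had none. The GC content was 38.7% and 40.7% in the 2 Mmp12 windows and 66.0% in Mmp15, with a median of 52.7% over all windows. These matches describe the letters of the windows, and no binding was measured here.

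Among the secreted enzymes, Mmp2 (gelatinase A, chr8:92827290-92853421) had the widest separation of KO 1 and KO 3 from the WT hosts. Its level was 29.1, 52.2 and 42.5 CPM in the WT libraries and 7.24, 29.6 and 4.32 CPM in the KO libraries, both in the order of their numbers, as below. KO 1 and KO 3 lay below every WT library, whereas KO 2 lay within the WT range, so the groups overlapped. Mean levels of Mmp2 were 41.3 ± 11.6 CPM for WT (SD, n = 3) and 13.7 ± 13.9 CPM for KO (SD, n = 3), and the fitted log2 fold change (KO minus WT) was -1.61 ± 0.73 (SE) over all 6 libraries and -2.83 ± 0.36 without KO 2. The WT mean was 3.01 times the KO mean and 7.14 times the mean of KO 1 and KO 3.

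Mmp9 (gelatinase B, chr2:164940326-164955850), which neutrophils and macrophages carry, was low throughout. It had 16 to 118 reads per library, and its level was 0.904, 0.827 and 5.82 CPM in WT and 1.43, 2.36 and 2.03 CPM in KO. WT 3 was the highest library, and WT 1 and WT 2 were lower than all 3 KO libraries. The log2 fold change was -0.39 ± 0.81 (SE) over all 6 libraries and -0.53 ± 0.94 without KO 2. Without WT 3 it turned to 1.16 and 0.98, so the direction rested on that library. Of 8 neutrophil markers, 3 were in the table, and S100a8 was at 0 in KO 2. Their summed level was 24.7, 17.3 and 24.9 CPM in WT and 20.4, 24.3 and 13.5 CPM in KO. Each marker was also taken as log2 CPM minus its own mean over the 6 libraries. The mean of these values was 0.01, -0.29 and 1.52 in WT and 1.0, -1.27 and -0.98 in KO, highest in WT 3 as for Mmp9. The part of neutrophils in the Mmp9 level was not tested.

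Mmp12 (macrophage elastase, chr9:7344397-7360461) was carried by a single tumor. It had 1056 reads in WT 3 and 21 and 38 in WT 1 and WT 2, against 34, 27 and 9 in KO 1, KO 2 and KO 3. As levels these were 0.999, 1.96 and 52.1 CPM in WT and 1.94, 1.20 and 0.469 CPM in KO, so that WT 3 stood 26.5 times above the next library and the groups overlapped. The log2 fold change of -3.95 ± 1.63 (SE) became -0.30 without WT 3, and over the 5 libraries without KO 2 it went from -3.94 ± 1.99 to -0.32. The 10 microglia and macrophage markers did not set WT 3 apart in the same way, with a summed level of 1091, 1045 and 1015 CPM in WT and 735, 1422 and 653 CPM in KO. The gap between WT 3 and the next library was 4.66 for Mmp12 and 1.99 for Ccser2 on the log2 scale, among genes with a mean of at least 5 CPM, a level that Mmp12 reached through WT 3 alone. In GENCODE vM21 a longer model of Mmp12, which ends at 7369499, shares exon sequence with Mmp1b on the opposite strand (from 7368239), and Mmp1b was not analysed here.

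**Figure D1:**
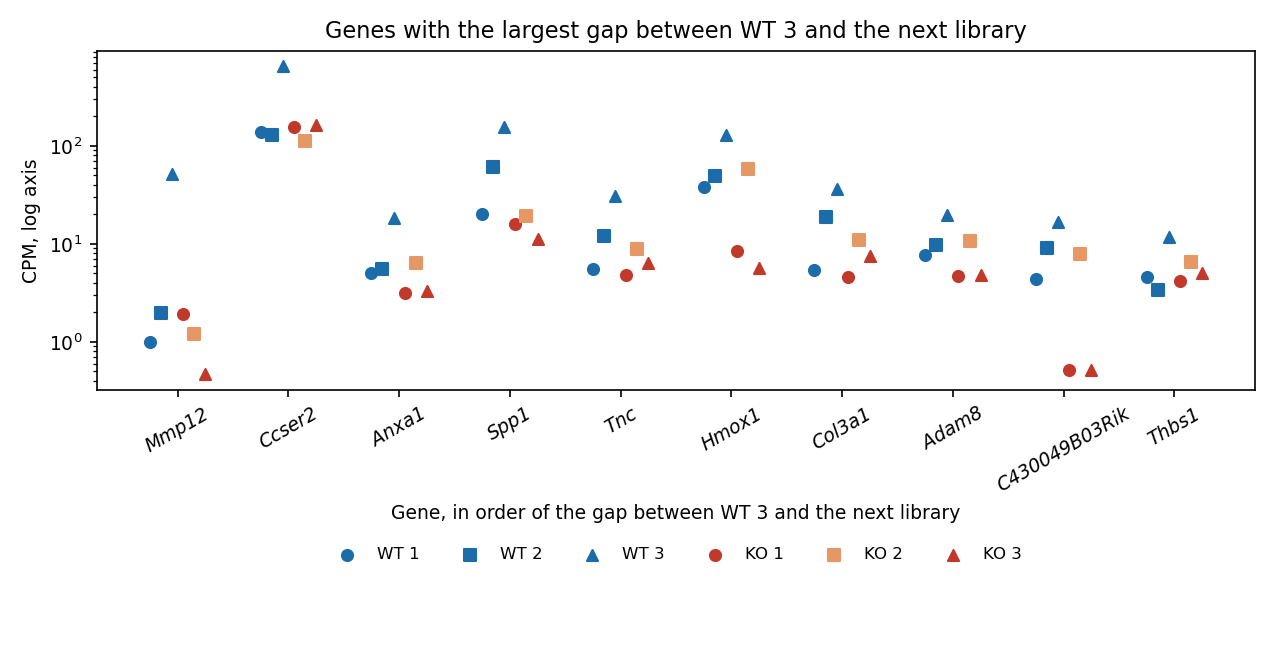
Level (CPM, log axis) in each library of the 10 genes with the widest gap between WT 3 and the next library, from left to right by that gap, with WT in blue, KO 1 and KO 3 in red and KO 2 in orange. Mmp12 is at 52.1 CPM in WT 3 and at 0.469 to 1.96 CPM in the other 5 libraries, and Ccser2 follows with 651 CPM against 112 to 164 CPM.

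The membrane-type enzymes Mmp14 and Mmp15 had the same order of libraries as Mmp2. Mmp14 (MT1-MMP, the activator of proMMP2, chr14:54431598-54442456) was at 32.5, 56.7 and 49.98 CPM in WT and at 19.97, 41.6 and 19.6 CPM in KO. Mmp15 (MT2-MMP, chr8:95352296-95374293) was at 74.3, 107 and 89.0 CPM in WT and at 25.3, 76.8 and 19.4 CPM in KO. In both genes WT 2 was the highest library, KO 1 and KO 3 were below all WT libraries, and KO 2 was within the WT range. Mmp15 had a log2 fold change of -1.18 ± 0.54 (SE) over all 6 libraries and -2.01 ± 0.22 without KO 2. For Mmp14 it was -0.80 ± 0.38 (SE) and -1.22 ± 0.26, the WT mean of 46.4 ± 12.5 CPM (SD, n = 3) being 1.71 times the KO mean of 27.1 ± 12.6 (SD, n = 3).

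Mmp16 (MT3-MMP, abundant in brain, chr4:17853072-18117479) differed little. It was at 38.4, 43.4 and 39.1 CPM in WT and at 26.5, 31.7 and 37.6 CPM in KO, and it was the 1 member in which all 3 KO libraries lay below all 3 WT libraries. The nearest pair, WT 1 and KO 3, were apart by less than the range within KO. Its log2 fold change was -0.35 ± 0.17 (SE) over all 6 libraries and -0.33 ± 0.19 without KO 2.

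**Figure D2:**
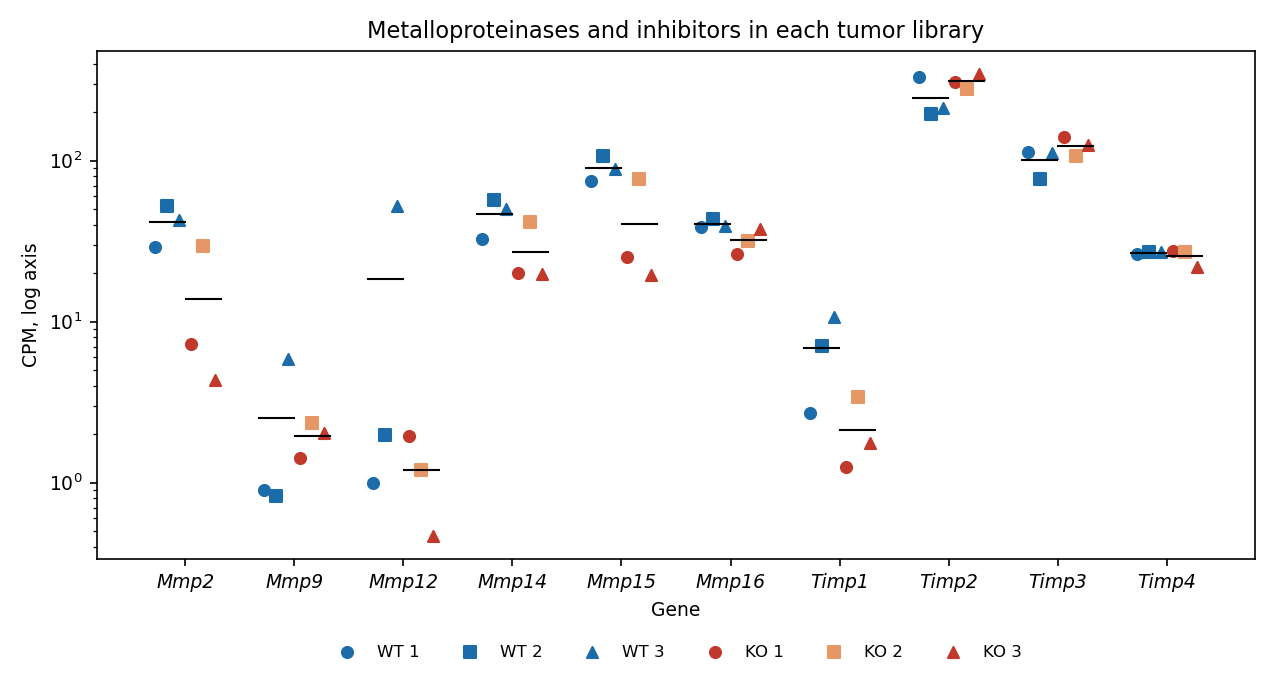
Level of the 10 members in each library (CPM, log axis), with WT libraries in blue, KO 1 and KO 3 in red, KO 2 in orange, and a bar at the mean of each group (n = 3). For Mmp2, Mmp14, Mmp15 and Timp1 the KO 1 and KO 3 points lie below all WT points, Mmp12 is high in WT 3 alone (52.1 CPM), and Timp2, Timp3 and Timp4 spread by less than 2-fold.

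Of the inhibitors, Timp1, the inducible member that blocks most secreted MMPs, had the largest difference. Timp1 (chrX:20870166-20874737) was at 2.71, 7.08 and 10.7 CPM in WT and at 1.25, 3.38 and 1.77 CPM in KO. KO 1 and KO 3 were below all WT libraries, and KO 2 was above WT 1. Timp1 averaged 6.82 ± 3.98 CPM in WT (SD, n = 3) and 2.14 ± 1.11 CPM in KO (SD, n = 3), with a log2 fold change of -1.69 ± 0.61 (SE) over all 6 libraries and -2.16 ± 0.63 without KO 2.

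The other inhibitors varied by less than 2-fold over the 6 libraries. Timp2, the bridge to proMMP2 (chr11:118301061-118355411), was at 329, 195 and 212 CPM in WT and at 307, 279 and 346 CPM in KO. WT 1 was as high as the KO libraries, and the log2 fold change was 0.33 ± 0.24 (SE) over all 6 libraries and 0.42 ± 0.27 without KO 2. Timp3, which binds to the matrix and also inhibits ADAM proteases (chr10:86300412-86349505), was at 113, 76.8 and 112 CPM in WT and at 139, 107 and 126 CPM in KO. Its log2 fold change was 0.29 ± 0.20 (SE) and 0.40 ± 0.21, and without KO 2 both KO libraries lay above all WT libraries. Timp4, an inhibitor found in brain and heart (chr6:115244444-115252205), was the steadiest member, at 26.2, 27.1 and 27.0 CPM in WT and 27.4, 27.2 and 21.8 CPM in KO, with a log2 fold change of -0.09 ± 0.15 (SE) over all 6 libraries and -0.12 ± 0.15 without KO 2, which changed sign in 1 alternative of each.

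The inhibitor genes Timp1, Timp3 and Timp4 lie inside synapsin genes on the opposite strand in the annotation (GENCODE vM21) (in Syn1, Syn3 and Syn2, respectively). Synapsins are proteins of neuronal synaptic vesicles. Exons of Timp1 and Syn1 do not overlap, whereas some exons of Timp3 and Syn3, and of Timp4 and Syn2, do. Strand-specific counting is not given in the sources used here, so reads of such a pair cannot be told apart where they overlap. Syn1 was at 276, 84.8 and 165 CPM in WT and 601, 222 and 811 CPM in KO, so its highest libraries, KO 1 and KO 3, were the lowest of Timp1. Syn2 was at 362, 211 and 256 CPM in WT and 457, 326 and 737 CPM in KO, a range that Timp4 did not follow. Syn3 was at 48.2, 23.2 and 28.9 CPM in WT and 58.8, 43.7 and 66.0 CPM in KO. Its level was below that of Timp3 in every library. Both genes were lowest in WT 2 and highest in KO 1 and KO 3. The part of Syn3 in the Timp3 count was not tested.

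Over all 6 libraries, edgeR's quasi-likelihood test with Benjamini-Hochberg adjustment called none of the 10 members. DESeq2, edgeR's exact test and limma-voom called none of them either, though DESeq2 gave no adjusted p for Mmp12. The quasi-likelihood test called 0 of 16166 genes lower (0%) and 0 higher (0%). Without adjustment, 1923 genes (11.9%) had p under 0.05 in the lower direction and 2462 (15.2%) in the higher, and among the members 1 did in the lower (Timp1) and 0 in the higher. All 3 KO libraries were below all WT libraries in 14.6% of genes and in 1 of the 10 members, and above in 13.2% of genes and in 0 members. Without KO 2, the same test called 4 members lower (Mmp2, Mmp14, Mmp15 and Timp1) and 0 higher, where 28.3% of 16279 genes were called lower and 24.5% higher. KO 1 and KO 3 were both below all WT libraries in 40.2% of genes and 5 members, and both above in 37.5% of genes and 1 member. Since the members were chosen on this contrast, nothing is read from these counts. The 4 calls without KO 2 became 3 when WT 2 was left out as well, 2 (Mmp2 and Mmp15) when WT 3 or KO 1 was, and 0 when KO 3 was. With KO 2 and KO 3 both left out the KO arm is 1 library and no gene was called (smallest adjusted p by edgeR 0.0686), and the log2 fold changes were -2.50 for Mmp2, -1.83 for Mmp15, -1.21 for Mmp14 and -2.43 for Timp1. The median log2 fold change of the members was -0.60 over all 6 libraries and -0.88 without KO 2, beside -0.02 and -0.02 for all genes tested. KO 2 lay within the WT range for 8 of the 10 members. The same count was not made over all genes, so nothing is read from this one either.

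Among the other 8 MMP genes of the table, 2 were called higher without KO 2 (Mmp17 and Mmp24) and 2 lower (Mmp19 and Mmp25), where 24.5% of all genes were called higher and 28.3% lower. Mmp17, a membrane-anchored MMP (MT4-MMP), was at 119, 52.1 and 72.9 CPM in WT and at 216, 82.9 and 310 CPM in KO. Its log2 fold change was 1.31 ± 0.53 (SE) over all 6 libraries and 1.70 ± 0.37 without KO 2, with an adjusted p of 0.0163 by edgeR in the latter. Mmp24, the neural MT5-MMP, was at 44.9, 23.1 and 28.4 CPM in WT and at 76.3, 45.0 and 88.4 CPM in KO. All 3 KO libraries of Mmp24 were above all WT libraries, but KO 2 and WT 1 were nearly equal. Mmp24 differed by 1.11 ± 0.34 (SE) on the log2 scale over all 6 libraries and by 1.36 ± 0.29 without KO 2 (edgeR, adjusted p = 0.0155). In both genes the order of libraries was that of the neuron markers at its ends, with WT 2 lowest and KO 3 highest, and the part of neurons in these levels was not tested.

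Mmp19, called lower without KO 2, was at 7.23, 11.5 and 10.5 CPM in WT and at 4.45, 8.55 and 4.74 CPM in KO (log2 fold change -0.74 ± 0.35 over all 6 libraries and -1.08 ± 0.28 without KO 2, edgeR adjusted p = 0.0245). Mmp25, the GPI-anchored MMP of leukocytes (MT6-MMP), was at 1.67, 2.22 and 3.01 CPM in WT and at 0.913, 2.67 and 0.260 CPM in KO (-0.85 ± 0.77 over all 6 libraries and -1.97 ± 0.59 without KO 2, edgeR adjusted p = 0.0352). Mmp13 (collagenase 3) was at 0.619, 1.29 and 4.24 CPM in WT and at 0.342, 0.935 and 0.208 CPM in KO, and like Mmp12 it was highest in WT 3. Its log2 fold change of -2.03 ± 0.89 over all 6 libraries and -2.87 ± 1.01 without KO 2 did not pass (edgeR, adjusted p = 0.0548 in the latter). Nor did those of Mmp11 (stromelysin 3) at -0.64 and -1.17, Mmp28 at 0.40 and 0.47 or Mmp23 at 0.24 and 0.11 (edgeR, adjusted p of 0.0576, 0.229 and 0.836 without KO 2). Mmp28 was at 2.34 to 3.31 CPM in KO and at 1.76 to 2.19 CPM in WT. All KO libraries were thus above all WT libraries, as in 13.2% of all genes. Over all 6 libraries edgeR's quasi-likelihood test called none of the 8 and passed Mmp17 and Mmp24 at an unadjusted p under 0.05, the exact test and limma-voom called none, and DESeq2 called Mmp24 higher (adjusted p = 0.0498). The median of the 8 was -0.20 over all 6 libraries and -0.49 without KO 2.

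**Figure D3:**
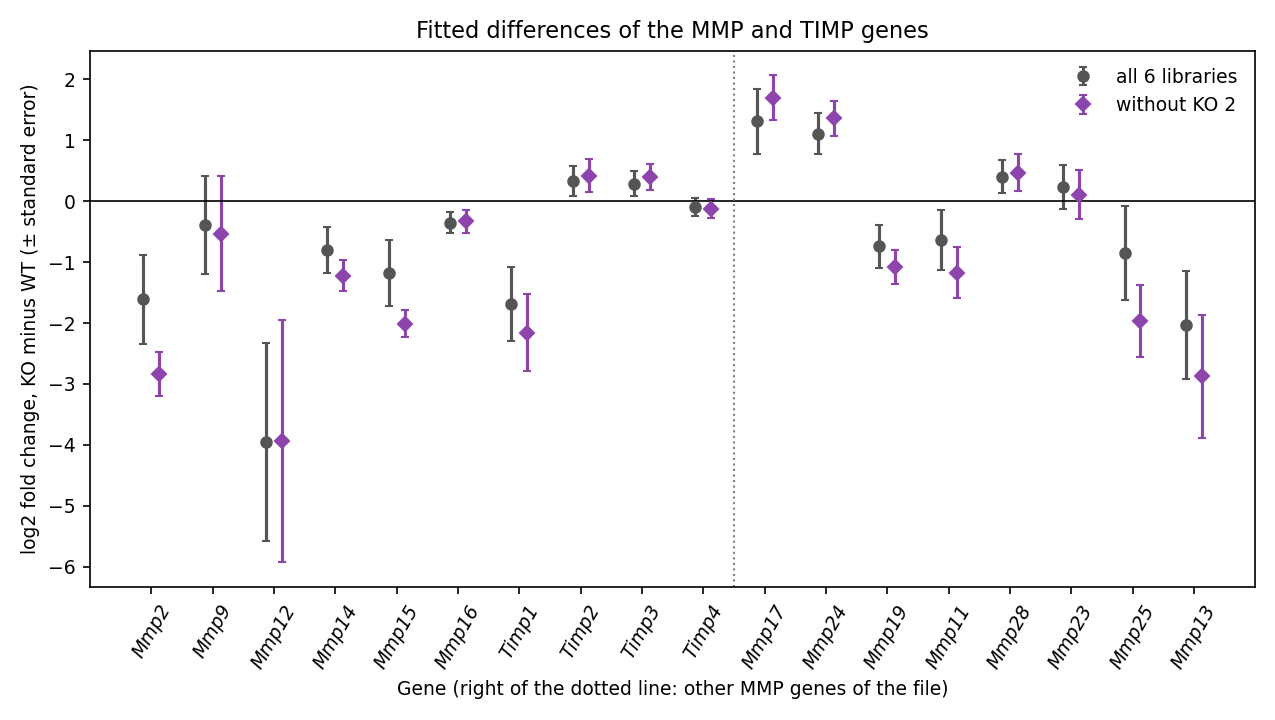
Log2 fold change (KO minus WT) with its standard error for the 10 members and, right of the dotted line, the other 8 MMP genes, over all 6 libraries (circles, 3 against 3) and without KO 2 (diamonds, 3 WT against 2 KO). Mmp2 and Mmp15 moved farther from 0 without KO 2 (-2.83 and -2.01), Mmp12 has the widest errors (1.63 and 1.99), and Mmp17 and Mmp24 lie above 0 in both.

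Levels of different genes were compared per length, with the deposited FPKM. On that scale Timp2 was the most abundant member, with a mean of 75.9 FPKM over the 6 libraries, followed by Timp3 (23.8), Timp4 (18.6), Mmp15 (16.0), Mmp14 (14.6), Mmp2 (9.55), Mmp16 (7.97), Timp1 (5.28), Mmp12 (2.88) and Mmp9 (0.714). Timp2 was above Timp3, and Mmp14 above Mmp2, in all 6 libraries. Neighbours from Timp4 to Mmp14 were not separated, since Timp4 was above Mmp15, and Mmp15 above Mmp14, in 4 of 6 libraries. The same count was 4 of 6 for Mmp2 over Mmp16 and 3 of 6 for Mmp12 over Mmp9. Mmp17, at a mean of 38.7 FPKM, was below Timp2 in all 6 libraries and above Timp3 in 4 of them, which were WT 1 and the KO libraries.

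The 6 MMP members summed to 49.7, 81.5 and 84.3 FPKM in WT and to 20.7, 54.6 and 19.4 FPKM in KO. KO 1 and KO 3 were below all WT libraries and KO 2 was above WT 1. The 4 TIMPs summed to 140.0, 107 and 121 FPKM in WT and to 123, 130 and 121 FPKM in KO, so the groups overlapped fully. The ratio of the 4 TIMPs to these 6 MMP members was 2.82, 1.31 and 1.44 in WT and 5.94, 2.37 and 6.21 in KO 1, KO 2 and KO 3. It leaves out the other MMP genes, among them Mmp17 and Mmp24, which were higher in KO 1 and KO 3. The ratio therefore describes the chosen members and not the balance of inhibitors and enzymes over the family. When all 14 MMP genes were summed, the groups overlapped, at 103, 113 and 126 FPKM in WT and 98.6, 100.2 and 118 FPKM in KO, but their makeup differed. Mmp2, Mmp14 and Mmp15 together made up 39.3%, 62.2% and 46.0% of that sum in WT and 14.8%, 46.0% and 9.90% in KO. Mmp17 and Mmp24 made up 44.4%, 19.7% and 23.4% in WT and 73.6%, 36.0% and 80.1% in KO. WT 1 lay nearest to KO 1 and KO 3 among the WT libraries, and it had the most neuron marker reads of the WT group.

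**Figure D4:**
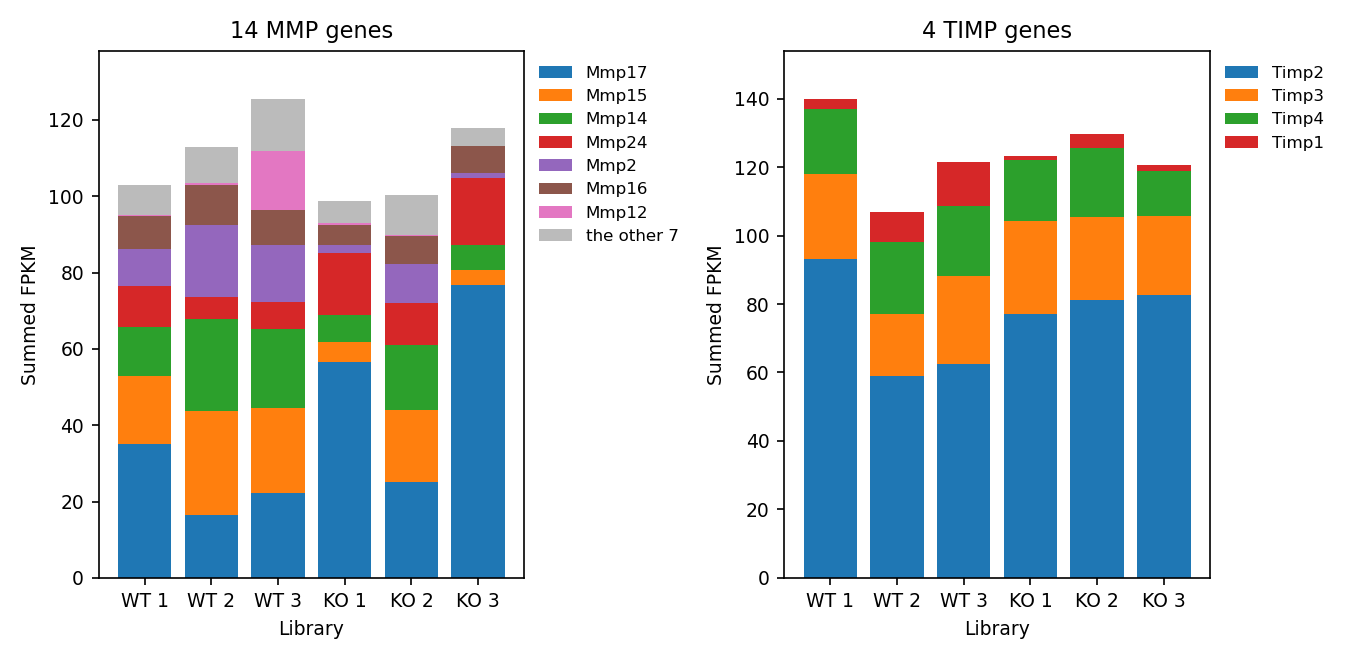
Summed FPKM in each library of the 14 MMP genes (left) and the 4 TIMP genes (right), stacked by gene, with bars starting at 0. The 14 MMP genes sum to 98.6 to 126 FPKM in every library, with Mmp17 the largest part in every library but WT 2 and at 56.5 and 76.7 FPKM in KO 1 and KO 3, Mmp2, Mmp14 and Mmp15 smaller there, and Mmp12 visible in WT 3 alone.

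Patterns over the 6 libraries were also compared with those of other genes, by the root mean square difference of centred log2 CPM among 13029 or 13030 genes with a mean of at least 5 CPM. This is a description over 6 libraries that share their depth and cell makeup. The nearest genes to Mmp2 were Dsn1 and Gen1 (0.056 and 0.077, with a median of 1.32 over all genes compared), a kinetochore component and a DNA resolvase. Dsn1 was at 24.3, 43.5 and 35.4 CPM in WT and at 6.22, 24.1 and 3.96 CPM in KO, in the order of Mmp2 except that WT 1 lay just above KO 2. For Mmp15 they were Cmtm3 and the splicing factor Ptbp1 (0.056 and 0.081, median 0.953), and for Mmp14 the ribosomal protein gene Rpl34 and Sfrp4 (0.050 and 0.051, median 0.643). Rpl34 had 3.49 to 10.1 CPM per library, and this 1 gene is not read as a pattern of ribosomal protein genes. Timp1 was nearest to Igfbp3 and Tnfrsf12a (0.293 and 0.307, median 1.05). Mmp12 had no close neighbour, since its nearest genes Spp1 (osteopontin) and Ccser2 were at 1.09 and 1.36 (median 2.09), and Ccser2 was also among the nearest genes to Mmp9, after Thbs1 (0.564 and 0.402, median 0.975). Mmp16 was nearest to Slc39a6 (0.067, median 0.416), Timp2 to Tmc4 and Evi5l (both 0.056, median 0.465), Timp3 to Chst12 and Kat5 (0.075 and 0.087, median 0.441) and Timp4 to Tial1 and Bckdha (both 0.034, median 0.365). Flat genes are near many others, as these medians show.

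**Figure D5:**
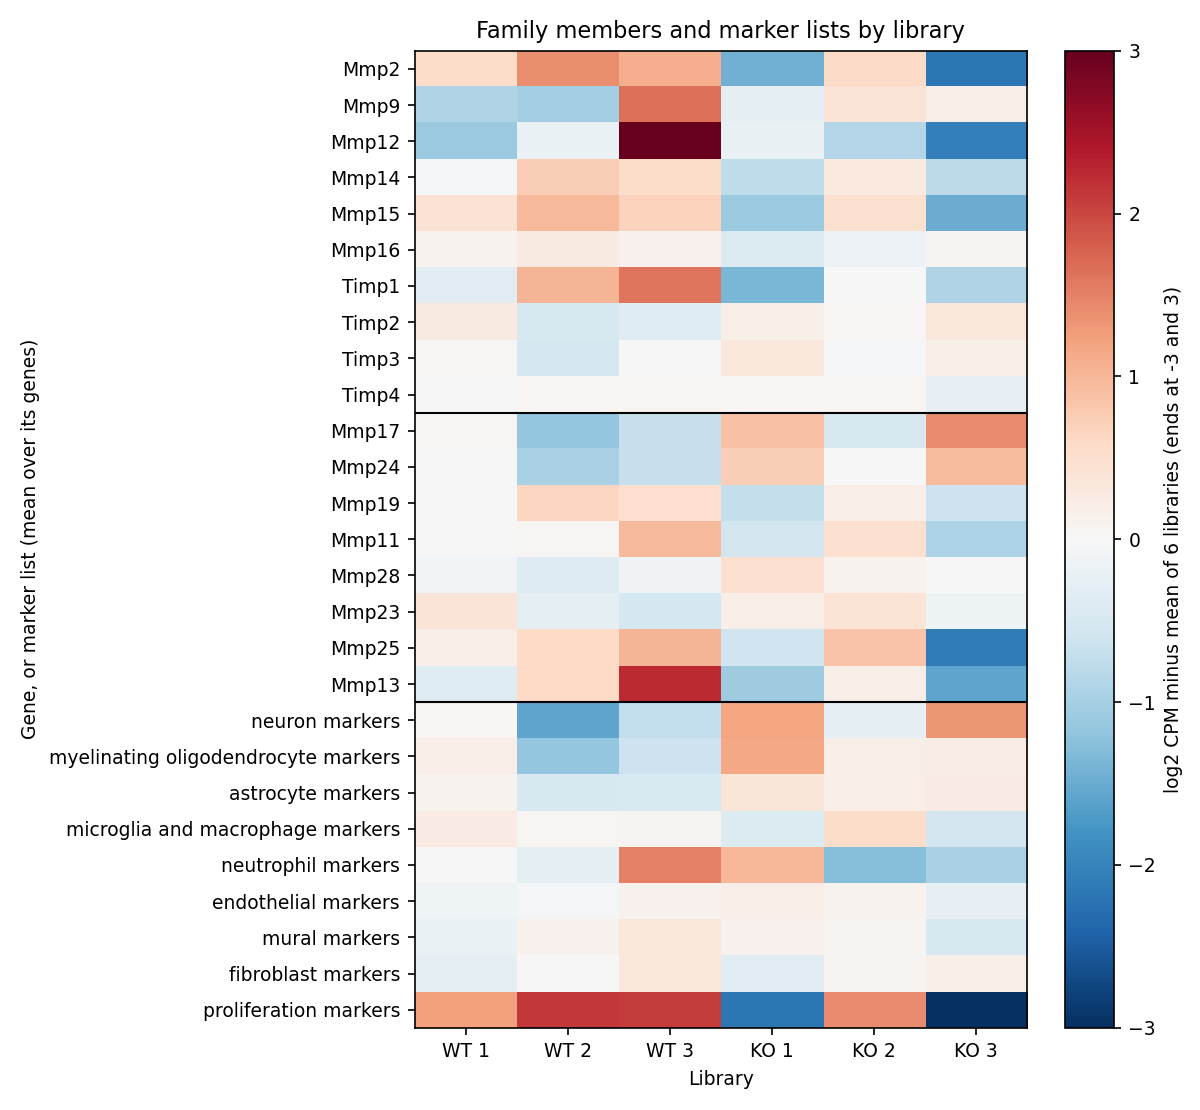
Centred log2 CPM (red above, blue below the mean over 6 libraries) of the 10 members (top), the other 8 MMP genes (middle) and marker lists as the mean over their genes (bottom), with colors ending at -3 and 3. Mmp2, Mmp14, Mmp15 and Timp1 are low in KO 1 and KO 3, where the proliferation markers are also low and the neuron markers high, and Mmp12 exceeds the color range in WT 3 (4.46).

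Related proteases and the partners of MMPs were read from lists matched by symbol. Over all 6 libraries edgeR's quasi-likelihood test and limma-voom called none of these genes, DESeq2 called those given below, and edgeR's exact test called Adamts12 lower and Adamts16 higher (adjusted p of 0.0474 and 0.0399). Calls without KO 2 come from the quasi-likelihood test, which called 28.3% of all genes lower and 24.5% higher, and with KO 3 left out as well it called no gene in the table. Of 18 tested ADAM genes, many of them membrane proteases that shed cell surface proteins, 2 passed an unadjusted p under 0.05 as lower and 6 as higher over all 6 libraries, and 7 were called lower and 4 higher without KO 2 (28.3% and 24.5% of all genes). DESeq2 called Adam19 lower and Adam11 and Adam33 higher over all 6 libraries. Their median log2 fold change was 0.31 over all 6 libraries and 0.27 without KO 2. Adam12 was at 53.2, 95.9 and 65.1 CPM in WT and 9.13, 38.9 and 6.46 CPM in KO (-2.00 ± 0.72 over all 6 libraries and -3.19 ± 0.33 without KO 2, edgeR adjusted p = 0.00798 in the latter). Adam33 had the highest log2 fold change of the list, 1.67 ± 0.52 over all 6 libraries and 1.99 ± 0.44 without KO 2 (edgeR, adjusted p = 0.0173). Adam2, of few reads, was at -0.97 over all 6 libraries and at -3.66 without KO 2, and Adam5 at -0.02 and -2.27. Both were called without KO 2, which was the highest library of Adam5 (2.40 CPM) and, after WT 3, of Adam2 (4.94 CPM).

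Of 18 tested ADAMTS genes, secreted proteases of which several cut proteoglycans, 5 passed an unadjusted p under 0.05 as lower and 3 as higher over all 6 libraries, and 5 were called lower and 4 higher without KO 2 (28.3% and 24.5% of all genes). The median log2 fold change was -0.09 over all 6 libraries and -0.19 without KO 2, and DESeq2 called Adamts9 and Adamts12 lower and Adamts16 higher over all 6. Adamts12 was at 6.85, 11.99 and 10.4 CPM in WT and 0.399, 2.58 and 0.364 CPM in KO, and here KO 2 lay below all WT libraries too. Its log2 fold change was -3.12 ± 0.82 over all 6 libraries and -4.65 ± 0.41 without KO 2. Adamts14 was at -2.76 ± 1.09 and -5.14 ± 0.47, and Adamts7 at -2.21 ± 0.90 and -3.88 ± 0.46 (edgeR, adjusted p = 0.00798 without KO 2 for each of the 3). Adamts16 was higher in all 3 KO libraries, at 2.90, 1.96 and 1.97 CPM in WT and 9.36, 4.58 and 9.06 CPM in KO (1.73 ± 0.37 over all 6 libraries and 2.01 ± 0.27 without KO 2, edgeR adjusted p = 0.00798).

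Of 11 tested genes of the plasmin system and of proenzyme activation, 1 passed an unadjusted p under 0.05 as lower and 1 as higher over all 6 libraries, and 7 were called lower and 1 higher without KO 2 (28.3% and 24.5% of all genes). Their median was -0.64 and -1.43, respectively, and DESeq2 called 1 lower and 1 higher (Pcsk5) over all 6. The urokinase receptor Plaur was at 4.76, 7.13 and 8.58 CPM in WT and 1.60, 6.81 and 0.885 CPM in KO (-1.15 ± 0.76 over all 6 libraries and -2.45 ± 0.43 without KO 2, edgeR adjusted p = 0.0107). Pcsk5, a furin-like convertase that can remove prodomains, was at 5.85, 2.95 and 2.32 CPM in WT and 13.5, 8.37 and 30.2 CPM in KO (2.22 ± 0.60 over all 6 libraries and 2.56 ± 0.51 without KO 2, edgeR adjusted p = 0.0137).

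Of 10 tested genes listed as MMP regulators, 2 passed an unadjusted p under 0.05 as lower and 1 as higher over all 6 libraries. The products of some of them bind, dock or clear MMPs. Without KO 2, 5 were called lower and 0 higher (28.3% and 24.5% of all genes). The medians were -0.64 over all 6 libraries and -0.94 without KO 2. Cd44, a hyaluronan receptor that docks Mmp9 and Mmp14 on the cell surface, was at 32.2, 63.1 and 58.6 CPM in WT and 5.42, 33.9 and 6.20 CPM in KO (-1.78 ± 0.78 over all 6 libraries and -3.14 ± 0.35 without KO 2, edgeR adjusted p = 0.00798). Lcn2, which forms a complex with Mmp9, was at 6.66, 4.24 and 9.32 CPM in WT and 1.54, 8.24 and 0.521 CPM in KO (-0.98 ± 0.94 over all 6 libraries and -2.71 ± 0.59 without KO 2, edgeR adjusted p = 0.0165). The protease inhibitor A2m was at 24.6, 21.1 and 12.2 CPM in WT and 4.85, 18.7 and 5.52 CPM in KO (-1.01 ± 0.59 and -1.89 ± 0.35, edgeR adjusted p = 0.0116 in the latter). Lrp1, the endocytic receptor that clears MMPs with their inhibitors, was at 613, 433 and 502 CPM in WT and 777, 713 and 765 CPM in KO and did not pass without KO 2 (0.53 ± 0.21 over all 6 libraries and 0.58 ± 0.22, edgeR adjusted p = 0.0676), though DESeq2 called it higher over all 6 (adjusted p = 0.0401).

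Of 14 matrix genes whose products MMPs cut, 3 passed an unadjusted p under 0.05 as lower and 1 as higher over all 6 libraries, and 6 were called lower and 1 higher without KO 2 (28.3% and 24.5% of all genes), with medians of -0.61 and -0.91. Vcan (versican) was at 321, 412 and 441 CPM in WT and 74.3, 423 and 32.3 CPM in KO (-1.17 ± 0.90 over all 6 libraries and -2.87 ± 0.41 without KO 2, edgeR adjusted p = 0.00815). The basement membrane laminin chain Lamc1 was lower by edgeR without KO 2 (-1.37 ± 0.23, adjusted p = 0.0102, against -1.02 ± 0.33 over all 6), as was fibronectin Fn1 (-1.33 ± 0.38, adjusted p = 0.0308, against -0.99 ± 0.41). Of the collagen genes at the ends of the list, Col1a2 was at 15.2, 12.1 and 16.4 CPM in WT and 22.5, 29.1 and 36.3 CPM in KO (0.99 ± 0.23 over all 6 libraries and 1.02 ± 0.25 without KO 2, edgeR adjusted p = 0.0217), and DESeq2 called it higher over all 6. Col3a1 was at 5.38, 18.8 and 36.1 CPM in WT and 4.56, 11.0 and 7.60 CPM in KO (-1.40 ± 0.70 and -1.72 ± 0.78, edgeR adjusted p = 0.109 in the latter) and did not pass. The 6 fibroblast markers, which include Col1a2 and Col3a1, summed to 68.8 to 108 CPM in WT and 64.2 to 92.9 CPM in KO. The 8 endothelial markers summed to 171 to 209 and 159 to 220 CPM. The 8 mural markers summed to 319, 409 and 402 CPM in WT and 214, 435 and 149 CPM in KO, with KO 1 and KO 3 below all WT libraries. As the mean over genes of centred log2 CPM, the mural markers were at -0.21, 0.14 and 0.33 in WT and 0.13, 0.08 and -0.47 in KO. On that measure KO 1 lay within the WT range. No test of the members' levels against these cell types was made.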

How the data were processed

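RNA of 6 tumors (3 Esm1 WT hosts, 3 Esm1 KO hosts) was sequenced. The deposited counts are the authors' whole-number read totals of each gene and carry no normalization, and the deposited FPKM were computed by the authors per gene length and per total count of a library, without TMM factors. The labels name mm10, CASAVA 1.8.2 and edgeR, while the methods name hg38 as the reference, and the labels and the methods name different library kits. The deposited table also holds fold changes, p-values and false discovery rates of the authors' own comparison and normalized columns, which were not used here. Each row has reads in at least 4 libraries and a maximum of at least 5.

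The quasi-likelihood F test of edgeR 4.0.16 (R 4.3.3) was run with TMM factors after filterByExpr (minimum count 10, minimum total 15), p-values were adjusted across every tested gene by Benjamini-Hochberg, and genes were called at an adjusted p under 0.05. Log2 fold changes are KO minus WT. The fit was made over all 6 libraries and over 5 without KO 2. Each tumor came from a separate host, so p-values measure the spread between these tumors of 1 culture. The floors given for a count of 0 cover counting error only, whereas the standard errors come from the fit and include the spread between libraries. Alternatives were RLE and upper quartile factors, no filter, a mean count of at least 10, DESeq2 1.42.0, edgeR's exact test, limma-voom (limma 3.58.1), a replicate block, each library left out, the 4 libraries WT 1, WT 2, KO 1 and KO 3, and a fold change above 4. The procedure was tested on simulated counts with a fixed spread, which does not show how it performs at the spread of these tumors.

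The members, gene lists and tests were chosen with earlier results of these data known. Named genes were the 10 members, every other MMP gene of the table, Esm1, in each other list the lowest and highest tested gene over all 6 libraries and the 3 called genes with the largest change without KO 2, and the 2 genes most like each member. The synapsin genes, S100a8, the genes high in WT 3 and genes that DESeq2 alone called were named after their values were seen. Some items that these rules name are not reported here. Log2 CPM used a prior count of 2. Gene positions came from RefSeq (GRCm38.p6), overlaps from GENCODE vM21. Figures were drawn with matplotlib 3.10.9 under Python 3.11.15 (numpy 2.4.6, pandas 2.3.3).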

Additional observations from a re-analysis of the deposited data

How the results depend on the processing

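Over all 6 libraries, edgeR's quasi-likelihood test called 0 genes (unadjusted p under 0.05: 1923 lower, 2462 higher), DESeq2 called 431 lower and 775 higher, and the exact test 46 and 75, with 0 members in each. With a library left out, calls ranged from 0 to 4608 lower, from 0 to 3986 higher and from 0 to 4 members lower, and were above 0 without KO 2 alone. The 4 libraries WT 1, WT 2, KO 1 and KO 3 gave 2244 lower and 464 higher, with 2 members lower (Mmp2 and Mmp15). Without KO 2, a fold change above 4 left 1218 lower and 245 higher. With a further library left out, calls ranged from 0 to 5532 lower, from 0 to 5195 higher, from 0 to 4 members lower and from 0 to 1 higher (Timp2 without WT 1). Without KO 3 in addition, none was called by edgeR (unadjusted p under 0.05: 3766 lower, 2798 higher), without KO 1 there were 1551 lower and 314 higher, without WT 3 2244 and 464, and without WT 2 3473 and 2461.

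Same-numbered WT and KO libraries deviated together for numbers 1 and 2 (r = 0.549 and 0.594) but not for 3 (r = -0.21). The unlike-numbered KO 3 and WT 1 did so as well (r = 0.541), so the numbers were not taken as pairs. With the replicate number as a block, 0 genes were called over all 6 libraries (unadjusted p under 0.05: 3328 lower, 3502 higher), and without KO 2 there were 2084 lower and 1105 higher, with 2 members lower. Without KO 2, Mmp2 and Mmp15 were called in 12 of 13 alternatives, Mmp14 in 9 and Timp1 in 7.

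Of 280 member values under alternatives, 265 moved by less than the spread between libraries of a group and 15 by more. That spread is wide enough to hold a change of sign, as for Mmp9 over all 6 libraries (-0.39, and 0.20 by limma-voom). Mmp9 ranged from -0.81 to 1.16 on the log2 scale over all 6 libraries, and Mmp12 from -4.51 to -0.30, the upper values being those without WT 3. The summed TIMP level had a log2 ratio of mean KO over mean WT of 0.29 in CPM and 0.02 in FPKM, which carry no TMM factors. The 9 reads of Mmp12 in KO 3 and the 1 read of Esm1 in KO 1 show where depth limits a level.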

Other observations

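Mmp12 had the widest gap between WT 3 and the next library, 4.66 on the log2 scale, among 13030 genes with a mean of at least 5 CPM, a level it reached through WT 3 alone. More than 4-fold above every other library were 1 gene in WT 3, 4 in WT 1 and 0 in each of the other libraries. The genes with the next widest gaps in WT 3 were chosen after their values were seen. Ccser2 was at 651 CPM in WT 3 and at 112 to 164 CPM in the other 5 libraries, a gap of 1.99. Anxa1 (annexin A1) was at 18.2 CPM in WT 3 against 3.19 to 6.41 CPM, and Spp1 (osteopontin) at 156 CPM against 11.2 to 60.9 CPM. The matrix glycoprotein Tnc (tenascin C) was at 30.7 CPM against 4.85 to 11.99 CPM, and the heme oxygenase Hmox1 at 129 CPM against 5.73 to 58.3 CPM. The protease Adam8 was at 19.8 CPM against 4.68 to 10.7 CPM. Esm1 itself was highest in WT 3, at 4.05 CPM against 1.19 and 1.09 CPM in WT 1 and WT 2.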
